A study of Mus musculus with 2 samples.

Results

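Cd209a type 2 dendritic cells were taken from libraries labelled as optic nerve of Nf1-OPG mice, a model of the optic glioma of neurofibromatosis 1. They were chosen cell by cell from raw UMIs, the counts of captured RNA molecules. A cell was a member when it had at least 2 UMIs of Cd209a, at least 10 UMIs summed over the MHC class II genes H2-Aa, H2-Ab1 and H2-Eb1, at most 4 summed over C1qa, C1qb and C1qc, and none of Xcr1 or Clec9a. Of 8834 cells kept in the library C-ON, 139 were members (1.57%, 95% interval 1.32 to 1.86), and of 16818 in the library FMC_new, 477 were (2.84%, 2.59 to 3.10). Over both libraries this made 616 of 25652 cells. Which library had the larger share depended on the cells counted. Among cells with a Ptprc UMI it was 5.999% in C-ON (5.002 to 7.13) and 4.91% in FMC_new (4.45 to 5.399), with overlapping intervals. Among cells with at least 10 UMIs of the MHC class II genes it was 14.8% (12.6 to 17.2) and 8.65% (7.92 to 9.42).

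Dendritic cells take up antigen, load peptides on MHC class II and present them to T cells. The conventional kind has a type 1 arm, which depends on Irf8 and Batf3 and bears Xcr1 and Clec9a, and a type 2 arm, which depends more on Irf4 and bears Sirpa and, in a part of its cells, Cd209a, Mgl2 (CD301b) and Clec10a (CD301a). Monocytes can also take on Cd209a and Mgl2 when they mature into antigen-presenting cells, so the genes that separate the lineages, such as Flt3, Zbtb46 and Csf1r, bear on what such cells are.

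The data were 2 droplet libraries made with a 10x Genomics 5′ kit, each with the genotype label NF1-OPG and each prepared from optic nerves pooled over 10 mice of 12 weeks. These mice are Nf1 flox/mut with GFAP-Cre, so every cell carries a mutant Nf1 allele and the other allele is lost only in cells with a history of the glial Gfap promoter, which drives the Cre. All members and all comparison cells share this genotype. The protocol also names meningeal dura, while the tissue label is optic nerve. The summed level of 6 oligodendrocyte genes was 4620 and 3430 CPM even in the members. Which of these tissues the members came from cannot be told from these values. The titles call C-ON a control and FMC_new "FMC new" without saying what separates them, so values of the libraries are given side by side and are not a comparison of treatments.

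The members had a median of 6700 UMIs in C-ON and 7042 in FMC_new, with 1991 and 2128 genes, and their UMIs summed to 960274 and 3357870. Levels are CPM, so that all UMIs of such a sum come to 1000000, and since the kit reads one end of each transcript they are not divided by length, so levels of different genes were not compared. Genes of other cells were found throughout FMC_new: growth hormone (Gh), made in the pituitary, was found in 100% of its members and in 99.9% of its T cells, and in 0 of 139 members of C-ON, which allows a share of up to 2.16% by a limit of 3 counts. The summed level of the 4 pituitary hormone genes was 5.21 CPM in the members of C-ON and 7533 CPM in those of FMC_new, and that of the 5 plasma cell genes was 244 and 3009.7 CPM. At least 2 UMIs of T cell genes (Cd3d, Cd3e, Cd3g, Trac) were found in 7 of 139 members of C-ON (5.04%) and in 60 of 477 of FMC_new (12.6%). The libraries shared 188 cell barcodes, and 0 of these were a member in both.

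The rule read Cd209a, a C-type lectin of the DC-SIGN family that binds glycans. Its gene lies on chromosome 8 at 3743397 to 3748984 on the minus strand, and Cd209b, Cd209c, Cd209d and Cd209e lie beside it, between 3847965 and 3954746, on the same strand. Mgl2 and Clec10a, lectins for galactose-type sugars, are neighbours on chromosome 11, at 70130329 to 70137550 and 70156197 to 70170834, both on the plus strand (GRCm38). The stretches just before the starts of Cd209a and Mgl2 are shown because these genes mark the cells. Both are from RefSeq on build GRCm38.p6, at chr8:3748985-3749234 on the minus strand and chr11:70130107-70130328 on the plus strand, written 5′ to 3′. The stretch of Cd209a has 250 bases, with the RefSeq start after the last base. That of Mgl2 has 222 bases and was cut at the gene start given above, which lies upstream of its RefSeq start.

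Cd209a: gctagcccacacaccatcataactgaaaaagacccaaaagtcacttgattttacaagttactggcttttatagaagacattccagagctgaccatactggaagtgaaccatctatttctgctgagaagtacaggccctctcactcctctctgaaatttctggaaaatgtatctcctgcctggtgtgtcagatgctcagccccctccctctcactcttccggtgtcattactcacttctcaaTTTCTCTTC
Mgl2: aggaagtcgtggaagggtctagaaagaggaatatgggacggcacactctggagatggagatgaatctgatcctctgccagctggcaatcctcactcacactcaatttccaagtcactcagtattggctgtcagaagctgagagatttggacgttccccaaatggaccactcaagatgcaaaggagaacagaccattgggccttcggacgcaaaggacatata

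The capitals mark the part, before the start of Cd209a, of a match to the composite element of ETS and IRF factors. The match lies on the other strand, and 1 further letter of it is the first transcribed base. Windows of 300 bases, 250 before and 50 after the RefSeq start, were searched on both strands for this element, for TGANTCA (AP-1) and for GAGGAAGT (PU.1). Among 27025 promoters they occurred in 2.79%, 7.93% and 3.28%, respectively. The window of Cd209a held the first only, and that of Mgl2 held none of them. Clec10a had no entry among these promoters. A match of letters is a description of the sequence and not a binding site.

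The values that chose the members are given as a description. Cd209a had a median of 10 UMIs per member in C-ON (range 2 to 50) and 7 in FMC_new (2 to 51). The MHC class II sum had a median of 302 (15 to 585) and 292 (10 to 698), so most members stood far above its limit of 10. It was 10 to 99 in 16 (11.5%) and 113 (23.7%) members. In FMC_new these had Flt3 in 14.2% and Tnip3 in 43.4%, against 58.8% and 83.5% of members with a sum of 100 or more. Their median depths were 2334 and 7977 UMIs, and the part of depth was not tested. No C1q UMI was found in 87.1% and 66.7% of the members. Just outside the limits lay 8 and 124 cells with a single Cd209a UMI, 2 and 35 cells with 5 to 9 C1q UMIs, 32 and 89 with 10 or more C1q UMIs, 8 and 51 with Xcr1 or Clec9a, and 0 and 7 with fewer than 10 MHC class II UMIs.

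Mgl2 and Clec10a, the markers the rule did not read, were found in most members. Mgl2 had a UMI in 89.2% of members in C-ON (1148 CPM) and 78.6% in FMC_new (1124 CPM). Clec10a had one in 52.5% (282 CPM) and 52.0% (345 CPM). Mgl2 was not particular to the members. The cells left outside the rule by 10 or more C1q UMIs had it in 90.6% (1100 CPM) and 80.9% (1217 CPM). Clec10a was found in 40.6% (128 CPM) and 37.1% (136 CPM) of those cells. In T cells, which should lack both (at least 3 UMIs of Cd3d, Cd3e and Cd3g and fewer than 10 of MHC class II), the shares were at most 0.653% for Mgl2 and 1.39% for Clec10a. The T cells were shallower, with medians of 3760 and 3397.5 UMIs, but after thinning every cell to 1000 UMIs Mgl2 still stood at 58.3% and 56.6% of members against 0.316% and 0.344% of T cells. Both lectins were found together in 61 (43.9%) and 186 (39.0%) members, and neither in 3 (2.16%) and 40 (8.39%). The members of FMC_new without either lectin had a median of 3093 UMIs, the lowest of these 4 groups of that library.

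**Figure D1:**
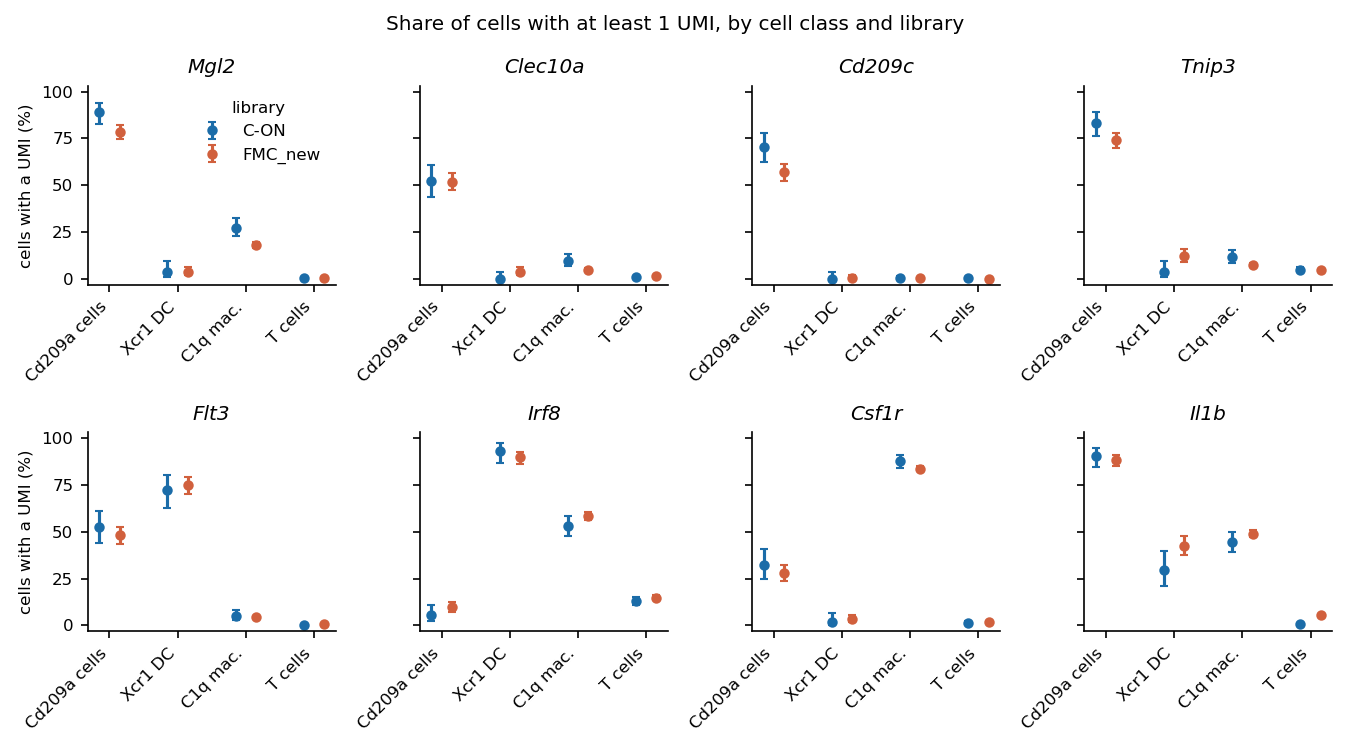
Share of cells with at least 1 UMI of 8 genes (vertical axis, %) in Cd209a cells, Xcr1 dendritic cells, C1q macrophages and T cells, with 1 point per library and exact 95% intervals, which cover counting error only. Il1b was found in 90.6% and 88.5% of the Cd209a cells and Irf8 in 5.76% and 9.64%, while Irf8 was found in 93.3% and 89.9% of the Xcr1 dendritic cells.

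Other genes named for type 2 dendritic cells were uneven in the members. Tnip3, an inhibitor of NF-kB signalling, had a UMI in 83.5% and 74.0% of members against 5.03% and 4.64% of T cells. The cells left outside the rule by 10 or more C1q UMIs had it in 78.1% and 66.3%. Irf4, the transcription factor linked to this arm, was found in 23.0% and 29.6%, but T cells, which use it too, had it in 17.6% and 12.8%. Esam and Clec4a4, which mark the Notch2-dependent part of the type 2 arm in spleen and gut, were close to absent, with 0 UMIs in C-ON and 1 UMI each in FMC_new.

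Genes of the conventional lineage were widely found. Flt3, the receptor for the cytokine that drives dendritic cell growth, had a UMI in 52.5% and 48.2% of members, and Zbtb46, a transcription factor of conventional dendritic cells, in 35.3% and 31.0%. In T cells Flt3 was found in at most 0.651% and Zbtb46 in at most 2.51%. Csf1r, the receptor for the macrophage growth factor, was found in 32.4% and 27.9% of members against 1.47% and 2.04% of T cells. Flt3 and Csf1r were seen together in 26 (18.7%) and 75 (15.7%) members, Flt3 alone in 47 and 155, and Csf1r alone in 19 and 58. The 47 and 189 members with neither gene had medians of 5396 and 4903 UMIs, below the 6700 and 7042 of all members. The cells left outside the rule by 10 or more C1q UMIs had Flt3 in 31.25% and 30.3% and Zbtb46 in 9.375% and 23.6%. They had Csf1r in 93.75% and 75.3%. The label of the members was kept, since Mgl2, Clec10a and conventional dendritic cell genes were present in them, while Cd209a was fixed by the rule. Mgl2, Flt3 and Zbtb46 were not particular to the members, and Csf1r, Cd14 and other genes of monocytes were present too.

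The limit of 2 Cd209a UMIs cut through a gradient in FMC_new. From cells with a single Cd209a UMI, just outside, through those with 2, 3 and 4 to 11, to those with 12 or more, the share with Cd209c was 15.3%, 14.5%, 28.3%, 57.0% and 83.1%. For Mgl2 the shares were 54.8%, 65.8%, 67.9%, 77.0% and 88.5%. The median depth of these cells was 3286, 3053.5, 3673, 6794 and 8526 UMIs, so depth moved with these shares and its part in them was not tested. In C-ON only 8, 10 and 8 cells had 1, 2 and 3 Cd209a UMIs, and the share with Cd209c was 50% in each of these and 79.7% in the 59 cells with 12 or more.

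**Figure D2:**
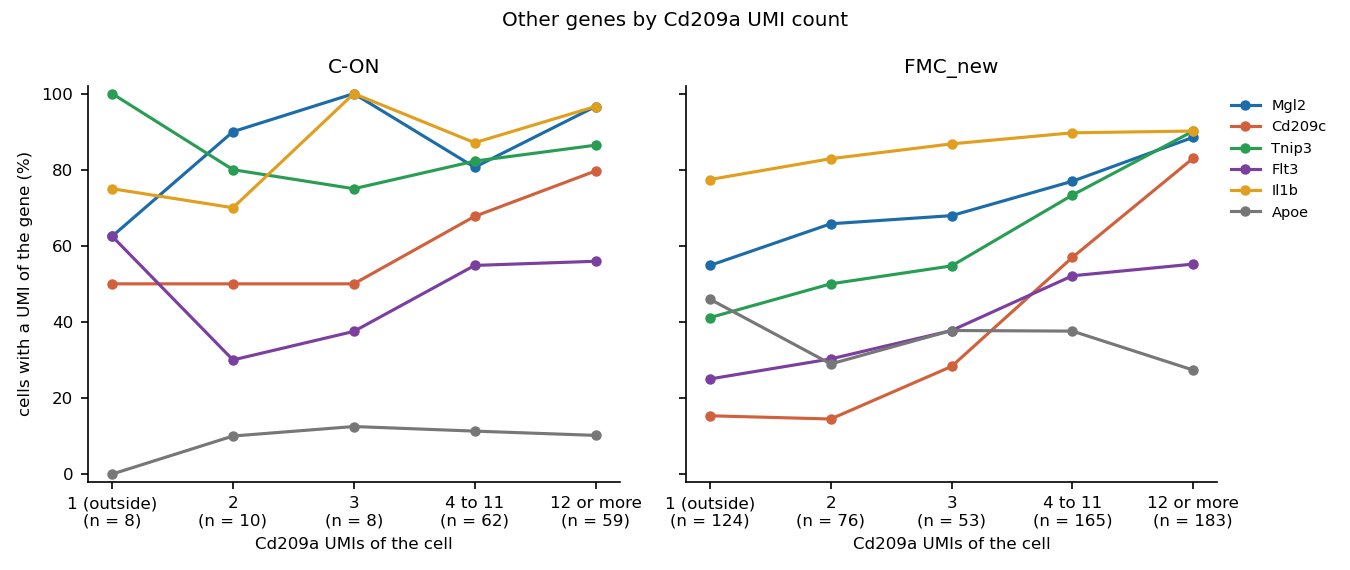
Share of cells with a UMI of 6 other genes (vertical axis, %) by the Cd209a UMIs of the cell (horizontal axis), for each library. In FMC_new the share with Cd209c went from 15.3% of the 124 cells with 1 Cd209a UMI, which are outside the rule, to 83.1% of the 183 cells with 12 or more. Apoe went from 46.0% to 27.3%.

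To place the members among the other myeloid cells of the libraries, their UMIs were summed per library. These sums were compared with those of 3 classes cut by raw UMIs from the same kept cells. Xcr1 dendritic cells (104 in C-ON and 376 in FMC_new) had at least 2 UMIs of Xcr1 and Clec9a and met the same MHC class II and C1q limits. C1q MHC-II macrophages (347 and 2399) had at least 10 UMIs of C1q and of MHC class II. Ly6c2 monocytes (8 and 76) had at least 2 UMIs each of Ly6c2 and Lyz2 and fewer than 10 of MHC class II. All 3 classes were also limited to at most 1 Cd209a UMI, and the macrophages and monocytes to no UMI of Xcr1 or Clec9a. Genes that the gates read were left out of the test. Without the Cd209a limit, a setting added after seeing the data, the Xcr1 class gained 1 and 25 cells, the macrophages 32 and 89 and the monocytes none. Of the called fold changes named here, 11 of 42 against Xcr1 dendritic cells and 4 of 31 against macrophages then moved by over 1.5 times, and these are given beside the result. No call was lost. The gates chose cells by a few genes of the same counts, and genes that vary with those could not have been independent of the choice. Each p of Xcr1 cells and macrophages therefore measures only whether the mean class difference over both libraries exceeded the spread of the sums. The fit draws this spread from all 4 classes and moderates it over the genes tested. A small p is therefore not a replication of a gene in each library. The monocytes had a sum in 1 library only, so no p is given for them. The 7 sums left 2 residual degrees of freedom, and whether the libraries came from separate pools of mice is not stated, so the spread between them may be technical.

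Against Xcr1 dendritic cells, the members had more RNA of pattern receptors, of the cytokines Il1b and Tnf and of monocyte genes, and less of the type 1 program. Of 12593 genes tested, 1113 were higher in the members (8.84%) and 932 lower (7.4%) at an adjusted p of at most 0.05, with a median log2 fold change of 0.01 over all genes. For the lists below on which edgeR made no call in a direction, DESeq2 made none either, and the count at an unadjusted p under 0.05 was also 0 unless given. Against Xcr1 dendritic cells DESeq2 made as many calls on the type 1 and type 2 lists and fewer on several others. It called 2 T cell genes higher and 0 neutrophil or pituitary genes in either direction. Its counts higher and lower were 0 and 2 for the conventional list, 0 and 2 for the migratory list, and 8 and 0 for the monocyte list. All 10 tested genes of the type 1 list were lower, with a median of -4.04. Irf8 stood at 11.5 CPM in the members of C-ON and 41.1 in those of FMC_new, and at 1032 and 962 CPM in the Xcr1 cells, a log2 fold change of -5.13 (SE 0.32, adjusted p = 6.38e-07). Its share in members, 5.76% and 9.64%, was below that of T cells, 12.98% and 14.8%. Batf3, its partner in the type 1 program, was at 28.1 and 53.3 CPM against 121 and 133 (log2 fold change -1.57, SE 0.23, adjusted p = 0.000359). Cd36, a scavenger receptor of type 1 cells, was at 0 and 1.79 CPM against 228 and 268. These genes separated the classes in both libraries with no overlap.

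Of 13 tested genes of the type 2 list, 7 were higher (Sirpa, Tnip3, Clec4a1, Clec4a3, Itgam, Irf4 and Ltb) and 2 lower (Ifi205 and Cd24a), with a median log2 fold change of 1.52. Sirpa, the inhibitory receptor for CD47, was at 86.4 and 78.6 CPM in members against 0.963 and 4.93 CPM (log2 fold change 4.41, SE 0.31, adjusted p = 1.35e-06). Tnip3 was at 769.6 and 771 CPM against 12.5 and 36.2 (4.83, SE 0.36, adjusted p = 1.79e-06). Irf4 was at 61.4 and 68.2 CPM against 3.85 and 12.6 (2.75, SE 0.32, adjusted p = 7.15e-05). Both libraries of the members lay above both of the Xcr1 cells for these genes. Without the Cd209a limit, the log2 fold change was 3.63 for Sirpa and 4.07 for Tnip3. Cd24a, a surface glycoprotein that both kinds of dendritic cell can carry, was at 32.3 and 51.5 CPM against 374.5 and 373.6, a log2 fold change of -3.14 (SE 0.28, adjusted p = 8.94e-06).

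Conventional dendritic cell genes did not separate the classes as a group: of 10 tested, 2 were higher (Napsa and Bcl11a), 4 were lower (Flt3, Kit, Dpp4 and Jaml), and the median was -0.16. Flt3 was at 105 and 113 CPM in members against 148 and 219 (log2 fold change -0.71, SE 0.17, adjusted p = 0.0141), a call that was lost with DESeq2. Kit, the receptor for stem cell factor, was at 49.99 and 55.7 CPM against 142 and 134 (-1.33, SE 0.20, adjusted p = 0.00053). Zbtb46 was at 67.7 and 67.9 CPM against 58.7 and 86.8, a difference of -0.10 (SE 0.22) that did not pass (adjusted p = 0.845). Ccr2, the receptor that draws monocytes and dendritic cell precursors from blood, was at 211 and 199 CPM against 195 and 293 and did not pass either (-0.23, SE 0.22, adjusted p = 0.568). The levels of Zbtb46 and Ccr2 in the members lay within those of the Xcr1 cells or between them. Napsa, an aspartic protease, was at 732 and 779.7 CPM against 511 and 608 (0.48, SE 0.15, adjusted p = 0.0487), a call lost with RLE size factors, DESeq2 and thinned cells.

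Of 13 tested monocyte genes, 9 were higher than in Xcr1 dendritic cells and 2 lower, with a median of 2.41. Cd14, the co-receptor for bacterial lipopolysaccharide, was at 984 and 805 CPM against 13.5 and 14.0 (log2 fold change 6.07, SE 0.25, adjusted p = 5e-08). Csf1r was at 70.8 and 53.6 CPM against 1.93 and 3.83 (4.20, SE 0.31, adjusted p = 1.7e-06). Itgam, which encodes CD11b and is counted in the type 2 list and not here, was at 177 and 142 CPM against 0 and 4.38 (5.63, SE 0.38, adjusted p = 9.29e-07). All 3 stood apart in both libraries. Without the Cd209a limit, the log2 fold change was 4.87 for Cd14 and 4.83 for Itgam. Of the border macrophage genes 3 of 10 were higher, Mrc1, Cd163 and Pf4, and DESeq2 called 2 of the 10 higher. Pf4 had only 6 UMIs in the members and none in the Xcr1 cells. Mrc1, the mannose receptor, had 436 UMIs in the members and 3 in the Xcr1 cells, or 32 in the Xcr1 cells without the Cd209a limit. Cd163, a receptor for haemoglobin, had 108 UMIs in the members and none in the Xcr1 cells, or 3 without that limit.

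Of 31 tested genes of the C-type lectin and pattern receptor list, the markers Mgl2 and Clec10a included, 19 were higher and 3 lower than in Xcr1 dendritic cells, with a median log2 fold change of 3.78, or 2.38 with genes absent from one class set at their bound. Cd209c, Cd209d, Cd209b and Cd209e were all among the higher genes, but the gate of the Xcr1 cells limits their neighbour Cd209a, with which Cd209c moved across the members, so these counts are not independent of the gate. Cd209c had 1334 UMIs in the members (359 and 295 CPM in the 2 libraries) and 3 in the Xcr1 cells, and without the Cd209a limit the Xcr1 cells had 0 and 72 UMIs in the 2 libraries (18.6 CPM in FMC_new). Cd209d was at 26.0 and 60.8 CPM against 0.963 and 4.93 (log2 fold change 3.78, SE 0.34, adjusted p = 9e-06), and its call was lost with thinned cells. Its log2 fold change was 2.02 without the Cd209a limit (adjusted p = 0.002225). Cd209b and Cd209e had 62 and 29 UMIs in the members and none in the Xcr1 cells, and without the limit the Xcr1 cells still had none of Cd209b but 1 and 12 of Cd209e. These genes are similar copies next to each other, and how reads shared between them were counted is not given in the sources used here, so their levels are uncertain.

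The tested Clec4 genes of this list belong to a family with receptors for fungal and bacterial sugars. Of them, Clec4a1, Clec4a2, Clec4a3, Clec4b1, Clec4d and Clec4n were higher in the members. Clec4d had only 11 UMIs in the members and none in the Xcr1 cells. Clec4e did not pass (log2 fold change 2.05, SE 0.75, adjusted p = 0.0872). Clec4b1 was at 223 and 214 CPM against 3.85 and 6.30 CPM (log2 fold change 5.26, SE 0.27, adjusted p = 1.74e-07). Clec4n, which encodes Dectin-2, was at 81.2 and 108 CPM against 0 and 1.37 (6.57, SE 0.38, adjusted p = 4.03e-07). Without the Cd209a limit these values were 4.30 and 3.98. Tlr2, the receptor for bacterial lipoproteins, was at 154 and 98.0 CPM against 5.78 and 8.49 (3.95, SE 0.27, adjusted p = 8.91e-07). On the other side, Tlr3, the sensor of double-stranded RNA, was at 3.12 and 11.0 CPM against 146 and 193 (-4.33, SE 0.26, adjusted p = 4.11e-07), and Ly75, the endocytic receptor DEC-205, at 2.08 and 13.4 CPM against 101 and 113 (-3.41, SE 0.32, adjusted p = 1.31e-05). For all 5 receptors both libraries of the members lay on the same side of both libraries of the Xcr1 cells.

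**Figure D3:**
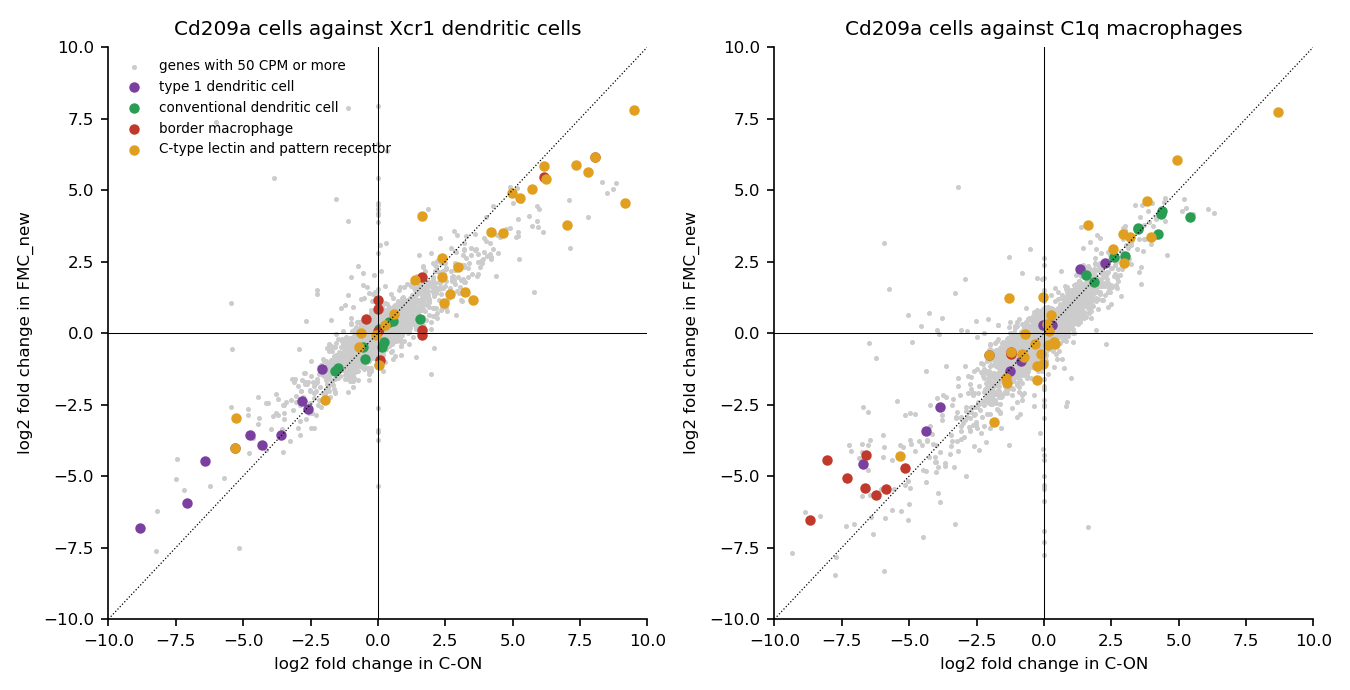
Log2 fold change in C-ON (horizontal axis) against that in FMC_new (vertical axis) of Cd209a cells over Xcr1 dendritic cells (left) and over C1q MHC-II macrophages (right), with 1 point per gene, a prior of 2 counts, genes of at least 50 CPM in grey and 4 lists in colour. The dotted line marks equal values. All 10 type 1 genes lay below 0 in both libraries on the left, and all 10 conventional dendritic cell genes above 0 and all 10 border macrophage genes below 0 on the right.

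Of 31 tested chemokine and cytokine genes, 14 were higher than in Xcr1 dendritic cells and 3 lower (Cxcl9, Il12b and Tnfsf13b), with a median of 1.16. Il1b, the inflammasome-processed cytokine, was at 3467 and 3261 CPM in members against 219 and 359 (log2 fold change 3.62, SE 0.20, adjusted p = 3.45e-07). Tnf was at 277 and 236 CPM against 27.0 and 44.6 (2.81, SE 0.22, adjusted p = 2.47e-06), and both Il1b and Tnf had a UMI in 70 (50.4%) and 207 (43.4%) members. Ccl9, a chemokine of the Ccr1 axis, was at 224 and 189.7 CPM against 0 and 4.66 (5.91, SE 0.36, adjusted p = 5.89e-07), and Ccr1 itself was at 99.97 and 116 CPM against 0.963 and 9.86 (3.97, SE 0.32, adjusted p = 3.91e-06). Without the Cd209a limit the value of Ccl9 was 4.89. Il6 had 62 UMIs in members and 2 in Xcr1 cells, a ratio of 33.7 (counting interval 8.94 to 284), or 4 UMIs in Xcr1 cells without that limit.

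Il12b, the shared chain of interleukins 12 and 23, had 3 UMIs in the members and 546 in the Xcr1 cells, a ratio of 168 in favour of the Xcr1 cells (counting interval 57.0 to 815). Cxcl9, which draws Cxcr3-bearing T cells, was at 45.8 and 75.6 CPM in members against 305 and 257 (log2 fold change -2.09, SE 0.23, adjusted p = 4.46e-05). Ccl17, a ligand of Ccr4, was at 234 and 401 CPM in members against 267 and 300 and did not pass (0.20, SE 0.21, adjusted p = 0.605). It had a UMI in 37.4% and 39.0% of members. Ccr7, which guides dendritic cells to lymph nodes, was at 15.6 and 17.0 CPM against 118 and 73.1 (-2.29, SE 0.35, adjusted p = 0.000609), and 6 (4.32%) and 24 (5.03%) members had a UMI of it, no more than the 6.60% and 10.4% of T cells, which can use it too. Over the migratory list, 1 of 12 tested genes was higher (Birc2) and 5 were lower, with a median of -0.03. Ccr7 and Fscn1 were found together in 1 and 4 members.

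For antigen presentation, 3 of 12 tested MHC class II pathway genes outside the rule were higher than in Xcr1 dendritic cells (Cd74, Ctss and Lgmn) and none was lower, with a median of -0.01. Cd74, the invariant chain, was at 42656 and 38601 CPM against 30893 and 30481 (log2 fold change 0.44, SE 0.10, adjusted p = 0.00782). Of 14 costimulation and checkpoint genes, 6 were higher and 2 lower. Tnfsf9, the 4-1BB ligand that costimulates T cells, was at 822 and 849 CPM against 27.9 and 25.2 (5.02, SE 0.21, adjusted p = 5e-08). It had a UMI in 81.3% and 71.5% of members. The cells left outside the rule by 10 or more C1q UMIs had it at 572 and 629 CPM. Cd80 was at 83.3 and 101.8 CPM against 34.7 and 44.9 (1.25, SE 0.18, adjusted p = 0.000463), while Cd86 was at 338 and 306 CPM against 444 and 580.4 (-0.63, SE 0.17, adjusted p = 0.0225), a call lost with DESeq2. Havcr2, which encodes the inhibitory receptor TIM-3, was at 85.4 and 82.5 CPM against 269 and 262 (-1.63, SE 0.18, adjusted p = 4.86e-05).

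Among 35 transcription factors, 13 were higher than in Xcr1 dendritic cells and 7 lower, with a median of 0.43. Zeb2, which represses the type 1 fate, was at 359 and 232 CPM against 39.5 and 31.8 (log2 fold change 3.06, SE 0.19, adjusted p = 6.38e-07). Id2, which the type 1 fate needs, was at 195 and 297 CPM against 703 and 893 (-1.68, SE 0.17, adjusted p = 2.14e-05). Of 14 interferon response genes, 8 were lower and 1 higher, with a median of -1.15. Ifitm3, the one higher gene, was at 1868 and 2211 CPM against 818 and 704 (1.47, SE 0.16, adjusted p = 4.46e-05). Of 12 immediate early genes, which also rise while tissue is dissociated, 9 were higher and none lower, with a median of 1.01, and Jun was at 746 and 653 CPM against 225 and 265 (1.55, SE 0.16, adjusted p = 2.67e-05). Their part in the other differences was not tested.

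Lists of other cells were checked in the same comparison. Of 6 T cell genes 5 were higher in the members (median 1.52), at a summed level of 148 and 212 CPM in members, 52.0 and 87.4 CPM in Xcr1 dendritic cells and 3427 and 4040 CPM in T cells. The part of T cell RNA in the other differences was not tested. Without the cells that had at least 2 UMIs of T or B cell genes, the counts against Xcr1 dendritic cells were 1304 higher and 1069 lower. Genes of B cells (4 tested), plasma cells (5), oligodendrocytes (6) and fibroblasts (4) gave no call in either direction, with 2 plasma cell and 4 oligodendrocyte genes higher at an unadjusted p under 0.05. Neutrophil genes were lower in 3 of 6. Of the pituitary genes Gh was higher and Prl and Cga lower.

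By size of change, the genes that joined these lists at the top were Sirpb1a, Dab2 and Hpgd among the higher, with log2 fold changes of 5.55 to 5.86, or 4.49, 4.65 and 4.77 without the Cd209a limit. Among the lower, Gcsam (1 UMI in members and 762 in Xcr1 cells) and Gpr141b (2 and 455) stood first, followed by Gpr33, Plpp1, Clnk and Dnase1l3 at -6.33 to -5.51. Hpgd, which inactivates prostaglandins, was at 85.4 and 52.4 CPM in the members against 1.93 and 1.10. Dnase1l3, a secreted DNase of dendritic cells, was at 1.04 and 2.08 CPM in the members against 81.8 and 89.0.

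Against C1q MHC-II macrophages, the members had more RNA of conventional dendritic cell and cell cycle genes and less of macrophage and microglia genes, while Cd14 and Itgam did not pass the test. Here 1586 genes were higher in the members (12.6%) and 1720 lower (13.7%), with a median over all genes of -0.07. All 10 tested conventional dendritic cell genes were higher, with a median log2 fold change of 3.69. Zbtb46 was at 67.7 and 67.9 CPM against 1.32 and 4.11 (4.53, SE 0.28, adjusted p = 2.24e-07), and Flt3 at 105 and 113 CPM against 10.6 and 9.81 (3.69, SE 0.21, adjusted p = 1.49e-07). Napsa was at 732 and 779.7 CPM against 42.7 and 48.6 (4.26, SE 0.17, adjusted p = 2.58e-08). These levels were apart in both libraries by more than the libraries differed. Without the Cd209a limit the value of Zbtb46 was 3.93. Of 10 type 1 genes, 2 were higher (Itgae and Wdfy4) and 6 lower, Irf8 among them, with a median of -0.97.

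All 10 border macrophage genes were lower, with a median of -5.87, and so were all 8 microglia genes, with a median of -4.66. Apoe, the lipid carrier, was at 19.8 and 92.9 CPM in members against 10036 and 9855 (log2 fold change -7.40, SE 0.40, adjusted p = 1.08e-07). In members it had a UMI in 10.8% and 32.3%, close to 9.74% and 23.9% of T cells. Csf1r was at 70.8 and 53.6 CPM against 792 and 838 (-3.53, SE 0.20, adjusted p = 1.53e-07). Mrc1 differed by less than these, at 132 and 92.0 CPM against 371 and 166 (-0.94, SE 0.19, adjusted p = 0.00322). Ptgs1, which encodes cyclooxygenase 1, had no UMI in the members and 2987 in the macrophages, so it was at least 279-fold lower.

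Of 13 monocyte genes, 4 were higher than in the macrophages and 8 lower, with a median of -2.70. Cd14 was at 984 and 805 CPM against 896 and 1175, a difference of 0.01 (SE 0.18, adjusted p = 0.983). Itgam, of the type 2 list, was at 177 and 142 CPM against 154 and 175, a difference of 0.15 (SE 0.23, adjusted p = 0.687). The levels of the classes overlapped for both, which does not show that they were alike. Ccr2 was at 211 and 199 CPM against 85.8 and 54.5 (1.81, SE 0.23, adjusted p = 8.86e-05). Cx3cr1, the fractalkine receptor of microglia and macrophages, was at 71.9 and 50.9 CPM against 400.3 and 557 (-2.80, SE 0.25, adjusted p = 4.08e-06). Of 13 type 2 genes 8 were higher and 2 lower (Sirpa and Clec4a3), with a median of 1.51. Irf4 was at 61.4 and 68.2 CPM against 19.4 and 13.6 (2.29, SE 0.27, adjusted p = 5.09e-05), and Sirpa at 86.4 and 78.6 CPM against 235 and 224 (-1.27, SE 0.20, adjusted p = 0.000412).

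The chemokines split. Of 31 genes of that list 7 were higher than in the macrophages and 17 lower, with a median of -0.81. Ccl17 was at 234 and 401 CPM against 26.4 and 19.6 (log2 fold change 4.07, SE 0.25, adjusted p = 1.99e-07), and Ccl22, which shares its receptor, at 64.6 and 52.7 CPM against 18.0 and 5.40 (2.90, SE 0.34, adjusted p = 4.21e-05). Il1b was at 3467 and 3261 CPM against 813 and 1129 (2.04, SE 0.19, adjusted p = 5.37e-06). The Cd209a cells left outside the rule by 10 or more C1q UMIs had Il1b at 2500 and 3171 CPM. Tnf, at 277 and 236 CPM against 246 and 255, did not pass (0.25, SE 0.19, adjusted p = 0.381). Ccl12 was at 3.12 and 4.47 CPM against 904 and 1288 (-7.96, SE 0.24, adjusted p = 3.9e-09), and Ccl2, the ligand of Ccr2, at 107 and 108 CPM against 958 and 729 (-2.73, SE 0.17, adjusted p = 2.06e-07). Ccl3, at 171 and 247 CPM against 633 and 685, was lower too (-1.41, SE 0.35, adjusted p = 0.00991), a call lost with DESeq2.

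**Figure D4:**
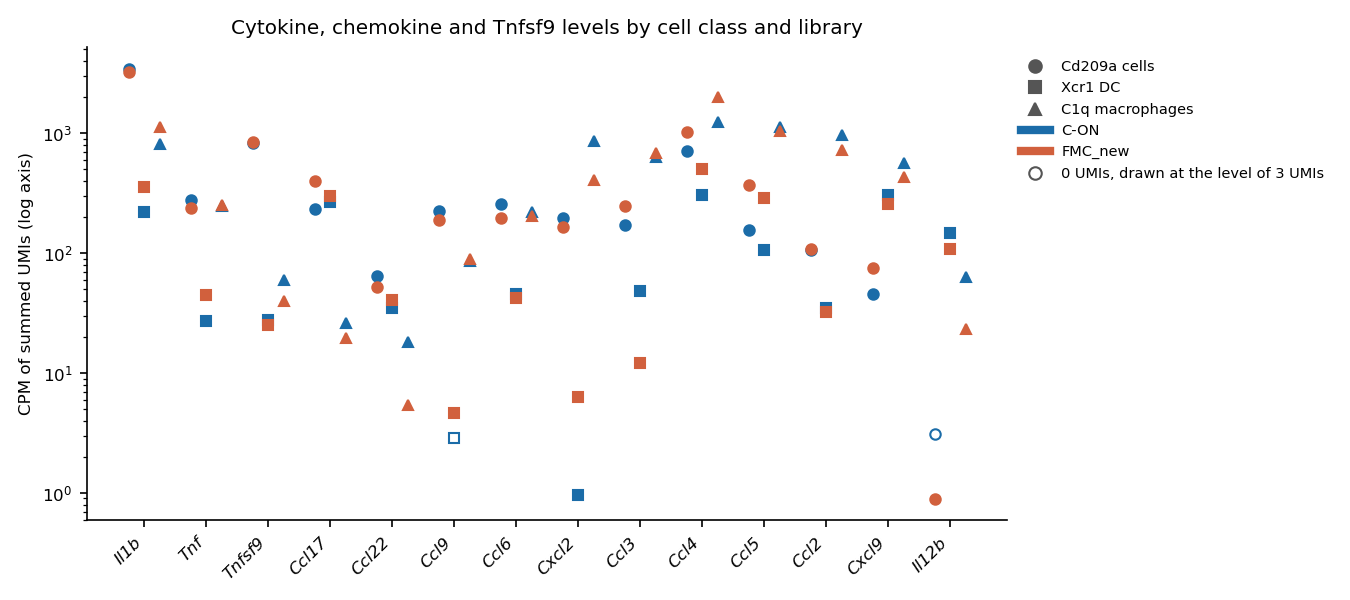
CPM of summed UMIs (vertical log axis) of 13 chemokine and cytokine genes and Tnfsf9 in Cd209a cells, Xcr1 dendritic cells and C1q MHC-II macrophages, with 1 point per library and open points for 0 UMIs, drawn at the level of 3 UMIs. Il1b was higher in the Cd209a cells, at 3467 and 3261 CPM, than in both other classes, while Ccl2 stood at 958 and 729 CPM in the macrophages and at 107 and 108 in the Cd209a cells.

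Of the 12 MHC class II pathway genes, 7 were higher than in the macrophages and 3 lower, with a median of 0.72. The higher genes load or regulate MHC class II: H2-Ob, which restrains peptide loading in B cells and dendritic cells, was at 149 and 148 CPM against 27.3 and 29.6 (log2 fold change 2.57, SE 0.18, adjusted p = 5.24e-07), and Ciita, the master regulator of the class, at 86.4 and 94.1 CPM against 42.2 and 33.1 (1.52, SE 0.21, adjusted p = 0.000176). The lower genes were lysosomal proteases: Ctss was at 971 and 969.7 CPM against 3855 and 4778 (-1.93, SE 0.15, adjusted p = 1.38e-06), and Lgmn at 72.9 and 55.4 CPM against 1119 and 1458 (-4.15, SE 0.22, adjusted p = 1.03e-07). The third was Ctsz.

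Of 12 cell cycle genes 10 were higher than in the macrophages and none lower, with a median of 1.81. Mki67 was at 45.8 and 61.7 CPM against 8.36 and 16.2 (log2 fold change 2.27, SE 0.21, adjusted p = 6.22e-06). Its difference from Xcr1 dendritic cells was 0.69 (SE 0.21, adjusted p = 0.0414), a call lost with DESeq2, with thinned cells and with members limited to at least 100 MHC class II UMIs and no C1q UMI. Mki67 and Top2a had a UMI together in 3 (2.16%) and 21 (4.40%) members, with median depths of 12194 and 13400 UMIs. Top2a was among the genes that were higher in the members of FMC_new.

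Interferon response genes were lower than in C1q macrophages in 9 of 14 and higher in 1 (Ifitm3), with a median of -0.97. Immediate early genes were higher in none of 12 (2 at an unadjusted p under 0.05) and lower in 4. Of the lists of other cells, all 6 oligodendrocyte genes were lower, 5 of 6 neutrophil genes were lower, and 2 of 6 T cell genes were higher (Lck and Cd3d). The T cell genes summed to 77.4 and 201 CPM in the macrophages, beside 148 and 212 in the members. Without cells with at least 2 UMIs of T or B cell genes, 1766 genes were higher and 1889 lower, and the part of such cells in the T cell gene differences was not tested.

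Of 35 transcription factors 18 were higher than in the macrophages and 9 lower, with a median of 0.48. Nr4a2, an orphan nuclear receptor, was at 349 and 253 CPM against 33.4 and 57.6 (log2 fold change 2.97, SE 0.30, adjusted p = 1.47e-05), and Cebpb, a factor of monocytes and macrophages, at 136 and 123 CPM against 957 and 997 (-2.71, SE 0.18, adjusted p = 3.22e-07). By size of change the leading higher genes included Cd209c (8.58, SE 0.29, adjusted p = 6.83e-09), at 359 and 295 CPM against 0.440 and 0.988, in macrophages limited to at most 1 Cd209a UMI. Without that limit Cd209c was at 14.1 and 7.18 CPM in the macrophages and its value was 5.33 (adjusted p = 1.39e-06). The others were Nccrp1, Klrd1, Skint3, Kmo, Ltb4r1, Mcemp1 and Lmo1, at 4.68 to 4.94, of which Skint3 went to 3.91 and Ltb4r1 to 3.50 without the limit. Klrd1, better known from natural killer cells, was at 281 and 343 CPM against 4.40 and 18.8. Ltb4r1, the receptor for leukotriene B4, was at 119.8 and 118 CPM against 5.72 and 4.49. Kmo, an enzyme of tryptophan breakdown, was at 66.6 and 91.1 CPM against 3.08 and 3.73, and its difference from Xcr1 dendritic cells did not pass (0.06, SE 0.19, adjusted p = 0.889).

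Ly6c2 monocytes could be compared in FMC_new only, since 8 cells of C-ON were too few. There 785 genes were higher in the members (6.23%) and 743 lower (5.9%). The neutrophil genes summed to 108797 CPM in these monocytes and 37.8 CPM in the members of FMC_new, and their part in the differences was not tested. Without monocytes carrying more than 2 UMIs of neutrophil genes, log2 fold changes moved by a median of -0.0082 over all genes. That median does not tell how far single genes moved. Ccl17 had no UMI in the monocytes and Cd209c none, against 401 and 295 CPM in the members of that library.

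The members were not uniform in Mrc1 and Cd163. A UMI of either was found in 71 members of C-ON (51.1%) and 173 of FMC_new (36.3%). The split was made by these genes after the data were seen, so its values are a description, with counting intervals only. Members with a UMI had less Kit, 16.3 CPM (interval 7.04 to 32.1) against 85.1 (60.8 to 116) in C-ON and 23.3 (16.0 to 32.7) against 79.4 (67.3 to 92.9) in FMC_new. They had more Cd209c, 522 against 189.5 CPM and 431 against 195. They had more Ccr2, 306 against 113 CPM and 278 against 142.

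The same cells had more Cd14 (1227 against 730.1 CPM and 1086 against 599.9) and more Clec4b1 (299.7 against 143 CPM and 323 against 135). Ccl17 was lower in them, at 104 (77.4 to 137) against 370.4 (317 to 429.7) in C-ON and 337 (307 to 368) against 449 (419.6 to 479.7) in FMC_new. Flt3, at 116 against 93.7 CPM and 110.0 against 116, and Zbtb46, at 53.0 against 83.0 CPM and 59.3 against 74.2, had overlapping intervals in both libraries. Depth moved with the split in FMC_new, where the medians were 8187 and 6381 UMIs, and in C-ON the other way, at 6342 and 6869. The directions of Kit, Cd209c, Ccr2, Cd14, Clec4b1 and Ccl17 were the same in both libraries.

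**Figure D5:**
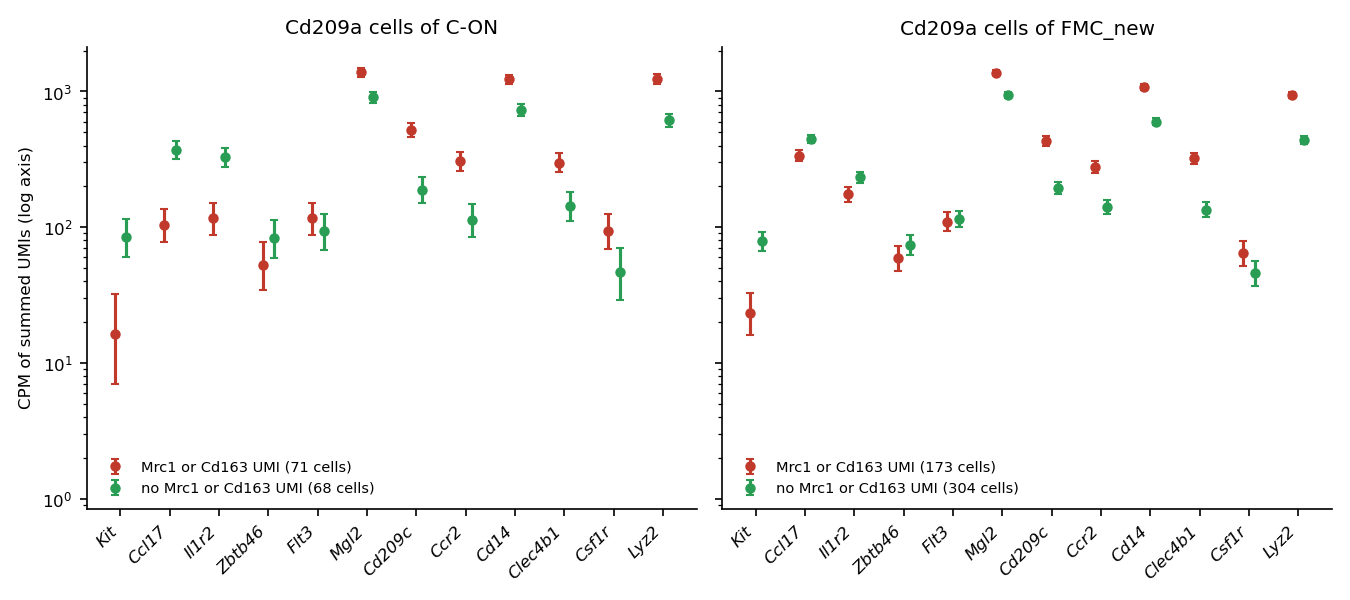
CPM of summed UMIs (vertical log axis) of 12 genes in Cd209a cells with and without a UMI of Mrc1 or Cd163, for each library, with exact 95% Poisson intervals, which cover counting error only. Kit, Ccl17 and Il1r2 were lower, and Cd209c, Ccr2, Cd14 and Clec4b1 higher, in the cells with a UMI in both libraries, while the intervals of Flt3 and of Zbtb46 overlapped.

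Between the libraries few genes of the members differed in level by 2-fold. Of 2906 genes with at least 50 CPM in either library, 69 were at least 2-fold higher in FMC_new (2.37%) and 60 in C-ON (2.06%). The median log2 ratio was 0.01. A small constant was added to both levels first, so a gene near 50 CPM needed somewhat more than 2-fold to count. With 1 library each there is no test. None of 10 conventional dendritic cell genes, 11 MHC class II pathway genes or 30 transcription factors of that level differed by 2-fold on this measure. Among those that did were Gh, Prl, Pomc and immunoglobulin genes such as Igkc (63.5 and 632 CPM), and Gh was also at 6521 CPM in the T cells of FMC_new. Cd274, which encodes PD-L1, was at 26.0 CPM in the members of C-ON and 73.9 in those of FMC_new, while the Xcr1 dendritic cells had 66.4 and 73.4. Plac8, a gene of blood monocytes, was at 56.2 and 161 CPM in the members, and 385 and 435 in the Xcr1 cells. Ccl7 was at 58.3 and 7.74 CPM in the members, and Ccl5 at 156 and 367, with the same direction in Xcr1 dendritic cells (60.6 and 10.4 for Ccl7, 106 and 286 for Ccl5).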

How the data were processed

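Single-cell suspensions of Nf1-OPG optic nerves were run in 2 libraries on a 10x Genomics 5′ kit (version 2). Reads were aligned to mm10 with Cell Ranger 7.2.0, per the submitters' processing notes, while the study's methods name an earlier version for its mouse samples, and the authors deposited raw UMI counts of 32285 features per barcode, with no normalization. Whether intronic reads were counted is not given in the sources used here. The libraries held 10845 and 21341 barcodes and 85101211 and 129113325 UMIs.

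Cells with 500 to 5000 genes, 500 to 20000 UMIs and at most 5% mitochondrial UMIs were kept. The members and the gene lists were chosen with earlier results of these data known, and the background gate of T cells was added after the counts had been seen. Scrublet (scanpy 1.11.5) called 1 and 0 doublets among 8834 and 16818 cells and so did not work, and no doublets were removed. UMIs were summed per library and class, and sums of fewer than 10 cells were left out. The sums were tested with edgeR 4.0.16 (R 4.3.3): TMM, filterByExpr with a minimum count of 10, glmQLFit with the library as a block and glmQLFTest, Benjamini-Hochberg adjusted over 12593 genes, two-sided. The block pairs classes that came from the same suspension. SE is the log2 fold change over the root of its F. Shares have exact Clopper-Pearson and CPM exact Poisson intervals of 95%, which cover counting error only. A gene with no UMI in a class was set to a floor of 3 counts. For shares free of depth, 1000 UMIs were drawn from each cell, which left out 2 members of FMC_new. The test was also run on counts simulated from a shared mean with known folds in some genes. Such counts cannot speak to the choice of cells by the gates or to genes of few UMIs.

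The genes named are those of the lists and, per comparison and direction, the 10 with the largest change among called genes of the same sign in both libraries and at least 50 CPM, without predicted genes. Immunoglobulin V genes among these were absent from C-ON and are given here by kind only. Genes named in the comparison of libraries were chosen after their values were seen. Alternatives were RLE size factors, DESeq2 1.42.0, no filter on low counts, no replicate block, other gate limits, removal of cells with T or B cell UMIs, thinned cells and each library alone. Other scripts used Python 3.11.15, numpy 2.4.6, scipy 1.17.1 and pandas 2.3.3, and figures matplotlib 3.10.9. Jaml stood for Amica1, and Clec7a, Mx1 and Sting1 were not analysed here. Values of 2 genes are not reported here.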

Additional observations from a re-analysis of the deposited data

Results flagged for a closer look

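Cells outside the limits on genes, UMIs and mitochondrial share entered no comparison, and some of them met the gene rule of the members. In C-ON these were 12 of 2011 barcodes (0.597%, 95% interval 0.309 to 1.04), where a count of 0 would allow up to 0.149%. In FMC_new they were 18 of 4523 (0.398%, 0.236 to 0.628), where a count of 0 would allow up to 0.0663%. Of these, 11 and 16 exceeded the upper limit on genes or UMIs, and the medians were 23375.5 and 23217 UMIs. Mgl2 was found in 83.3% of them in both libraries and Clec10a in 83.3% and 38.9%. Whether they hold more than 1 cell was not tested.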

How the results depend on the processing

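Of 74 alternative values of counts of genes and shares of members, 53 stayed within 1.5 times the count or the counting interval of the share. The counts of genes higher and lower in the members fell with DESeq2 to 570 and 397 (Xcr1 dendritic cells), 417 and 484 (Ly6c2 monocytes) and 897 and 659 (C1q MHC-II macrophages), with cells thinned to 1000 UMIs to 425 and 305, 364 and 311, and 671 and 744, and without the replicate block, which ignores that classes share a library, to 497 and 446 (Xcr1), 449 lower (Ly6c2), and 910 and 721 (C1q). The shift of the median over all genes was below 0.1 but for -0.13 with thinned cells against macrophages. Against Ly6c2 monocytes, 260 genes were lower without monocytes carrying more than 2 neutrophil UMIs, and the share of higher genes among calls went from 51.4% to 67.8%. The share of members in FMC_new was 3.57% with 1 or more Cd209a UMIs, 2.38% with 3 or more and 2.45% with at most 1 C1q UMI. Of 80 tested gene values, DESeq2 lost 5 calls, no block 9, thinning 3, RLE size factors 1 and the stricter gate 1, and comparison classes without the Cd209a limit lost none. Signs changed only in genes that had not passed: against Xcr1 dendritic cells Zbtb46 went to 8.43e-05 without T or B cell UMIs and to 0.48 with thinned cells, and against macrophages Cd14 went to -0.0056 without a filter, -0.0175 without T or B cell UMIs, -0.19 with thinned cells and -0.0544 without the Cd209a limit, and Itgam to -0.0315 with thinned cells. In C-ON alone Zbtb46 was at 0.23, Ccr2 at 0.15 and Ccl17 at -0.16 against Xcr1 dendritic cells, and in FMC_new alone Kmo was at -0.14 against these and Cd14 at -0.37 and Itgam at -0.12 against macrophages. The causes were not tested. With 1 library left out a fold change (with a prior of 2 counts) but no test is possible, and no count of calls was made. Of called fold changes, 18 of 42 against Xcr1 dendritic cells and 9 of 31 against macrophages moved by over 1.5 times without FMC_new, and 8 and 3 without C-ON, with no change of sign. Those that moved most against Xcr1 dendritic cells were, in C-ON alone, Ccl9 at 8.82 (5.91 in both), Dab2 at 8.72 (5.84), Itgam at 8.49 (5.63), Sirpb1a at 8.32 (5.86) and Ccr1 at 6.13 (3.97), and against macrophages Lmo1 at 6.30 (4.68). The gate of members with at least 100 MHC class II UMIs and no C1q UMI, the monocytes with at most 2 neutrophil UMIs and the classes without the Cd209a limit were chosen after seeing the data. With 139 members in C-ON and 477 in FMC_new, the counting interval of a given share is wider in C-ON.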
